A study of Sus scrofa with 48 samples.

Results

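Proteases of the ADAM, ADAMTS and MMP families and their TIMP inhibitors were followed in pig perirenal adipose tissue (PRAT), the fat around the kidney. A gene was taken where its name on the array began with ADAM, with MMP and a digit, or with TIMP. By this rule 46 genes were found on 75 of the 60305 distinct probes, and 32 genes on 55 probes passed the filter on dim signals (a scanner flag of well above background on at least 24 of 48 arrays). For each gene the brightest of its probes was kept, among 13378 named genes treated in the same way. The other 14 genes are described by their detection only.

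The tissue came from 48 Large White barrows aged 132 days, of 2 lines selected in opposite directions for residual feed intake (RFI), the difference between the feed a pig eats and the feed predicted for it. Low RFI pigs (RFIneg) are the more feed efficient and high RFI pigs (RFIpl) the less efficient. Each line was split between 2 diets offered ad libitum, which gave 4 groups of 12 pigs. One was a high-fat high-fiber diet (HF), with rapeseed and soybean oils and wheat straw. The other was a low-fat low-fiber diet rich in cereal starch (LF). Per the paper, both diets were formulated to the same energy content. It reports that HF pigs ate less and had less perirenal fat relative to body weight than LF pigs. One array was hybridised per pig, and all levels below are log2 signals relative to the median probe of the same array, so that 0 is the array median. On each array between 38875 and 47814 probes were well above background (median 43728) and none was saturated, and arrays correlated at r between 0.97 and 0.99. The 9 adipocyte markers examined (among them ADIPOQ, PLIN1 and LPL) were well above background on all 48 arrays. Because the RNA was taken from whole tissue, fewer cells of a type and less RNA per cell cannot be told apart.

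ADAM proteins are anchored in the cell membrane and combine a metalloprotease domain with a disintegrin domain. The active ones cut the outer parts of growth factors, cytokines and receptors from the cell surface, a step called shedding. ADAMTS enzymes are secreted and cut proteoglycans and procollagens, matrix metalloproteinases (MMP) cut collagens, gelatin and other matrix proteins, and TIMPs bind and block the MMP active site and that of some ADAMs. In adipose tissue this set of enzymes is known for remodelling the collagen network around fat cells as the depot grows or shrinks.

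The active enzymes share a stretch in which histidines hold the catalytic zinc ion, the zinc-binding motif. The letters coding for its opening part, from the first to the next zinc-binding histidine, lay inside 3 of the 75 probes (4.0%), compared with 132 of 60305 probes of the array (0.219%) on the strand as printed on the array, or 242 (0.401%) on either strand. These 3 probes are shown because they read the catalytic centre itself, with the part of the motif that each holds in capitals. No genome of the array's build was used here, so the probes are given without coordinates.
ADAM17 : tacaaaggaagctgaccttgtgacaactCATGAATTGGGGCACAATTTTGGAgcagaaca
MMP3 : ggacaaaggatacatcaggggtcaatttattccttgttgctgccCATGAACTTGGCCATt
MMP13 : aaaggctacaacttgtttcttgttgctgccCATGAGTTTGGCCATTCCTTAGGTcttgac
The ADAM17 probe shown was well above background on 48 arrays. It is not the brightest probe that was kept for ADAM17, with which it correlated at r = 0.19. The stromelysin MMP3 was measured above background on 8 arrays and the collagenase MMP13 on 0. None of the 3 probes holds the whole motif in capitals, and the MMP3 probe shows the least of it.

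Detection followed the roles unevenly. All 11 ADAMTS genes and both ADAMTS-like genes (ADAMTSL3 and ADAMTSL4) passed the filter, as did 6 of 7 shedding ADAM enzymes, both gelatinases (MMP2 and MMP9) and 3 of 4 TIMPs. Neither collagenase passed (MMP1 and MMP13, each above background on 0 arrays). Of the other 12 genes below the filter, ADAM29 came closest with 15 arrays, followed by MMP3 with 8, MMP23B with 5, and MMP12 and MMP25 with 3 each. MMP10, TIMP4 and ADAM18 reached 2 arrays, MMP17 and ADAM30 reached 1, and ADAM5 and ADAM3A reached 0. The array's names were kept for MMP25 and MMP10, whose identity is uncertain because the pig gene annotation names them otherwise. Among the 32 genes that passed, 28 were above background on every array, and the chosen probe with the poorest detection, that of ADAMTS19, was so on 45.

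Diet differences (HF minus LF, averaged over the lines) were called at a raw p under 0.01, a fold change over 1.1 and a Benjamini-Hochberg (BH) adjusted p under 0.08. The test was limma with p-values adjusted over all 43355 probes that passed the filter. Of the 32 genes, 6 rose with the HF diet (ADAM28, ADAMTS5, MMP14, ADAMDEC1, ADAM2 and ADAM15) and 2 fell (ADAMTS18 and MMP7). For ADAM28, ADAMDEC1, MMP14, ADAMTS18 and MMP7 no second probe passed the filter, so these calls could not be compared between probes. Over all 13378 named genes 787 were called higher, which is 5.88%, and 2524 lower, which is 18.9%. The median difference of the 32 genes was 0.08 on the log2 scale and that of all named genes was -0.05. Positive differences were found for 22 of the 32 genes and for 4818 of the 13378 named genes. Centring the arrays on spike-in transcripts in place of the median probe raised the median difference of all tested probes from -0.02 to 0.10. Calls over all named genes then became 2836 higher and 517 lower, and those of the 32 genes 14 higher and 0 lower, with ADAMTS18 at -0.42 and MMP7 at -0.14. With the 75th percentile, quantile or normexp-quantile scaling, calls over all named genes were 1083 higher and 2003 lower, 1156 and 1805, and 1140 and 1694, and those of the 32 genes were 8 higher and 2 lower each time.

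**Figure D1:**
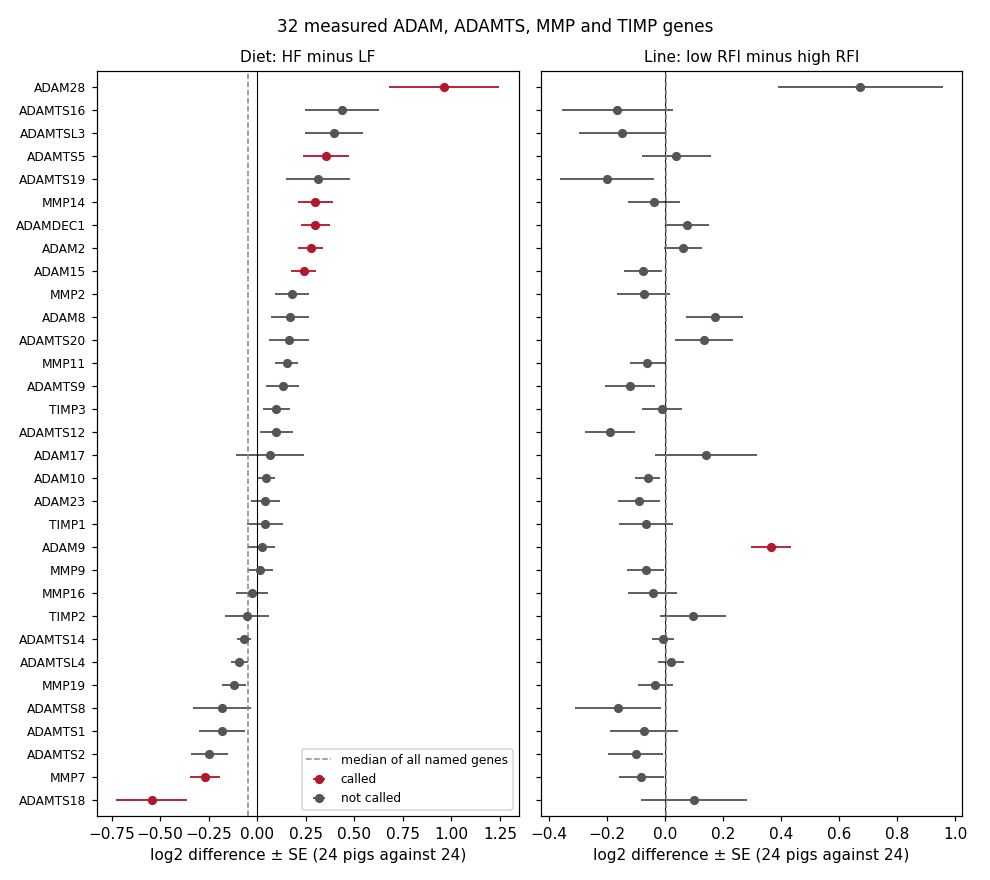
Log2 difference with its standard error for each of the 32 genes, HF minus LF on the left and low RFI minus high RFI on the right, with called genes in red and the median of all named genes as a dashed line. ADAM28 lies farthest to the right for diet at 0.96, ADAMTS18 farthest to the left at -0.54, and ADAM9 is the single gene called for line at 0.36.

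ADAM28, a shedding enzyme first known from lymphocytes, showed the largest diet difference of the 32 genes. In the 12 low RFI pigs on HF its level ran from -0.64 through a median of 1.08 to 2.53, and in the 12 high RFI pigs on HF from -1.51 through 0.21 to 2.67. On LF it ran from -1.20 through -0.02 to 0.94 in low RFI pigs and from -1.52 through -1.11 to 1.12 in high RFI pigs. The groups overlapped, yet 9 of the 24 HF pigs lay above the highest LF pig and 19 lay above the LF median. The mean was 0.59 ± 1.23 (SD, n = 24) on HF and -0.37 ± 0.85 (SD, n = 24) on LF. This difference of 0.96 (SE 0.28), or 1.95-fold, had a BH adjusted p of 0.0091. ADAM28 was the sole one of the 32 genes still called when a fold change over 1.5 was required. Its raw signals ran from 43.5 to 988, against array median backgrounds of 23 to 33. The median raw signal was 66.7 in the high RFI pigs on LF. No background was subtracted here, and with subtraction the diet difference was 1.34.

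The line difference of ADAM28 was 0.67 (SE 0.28, low RFI minus high RFI), with a raw p of 0.022 and a BH adjusted p of 0.27, and was not called. Counted against the array median, 9 of 12 low RFI pigs and 6 of 12 high RFI pigs on HF reached it, compared with 6 and 3 on LF. Levels more than 1 log2 unit below the array median were found in 8 of the 12 high RFI pigs on LF and in 0 of the 12 low RFI pigs on HF, with 3 in the high RFI pigs on HF and 2 in the low RFI pigs on LF. In the same fit the diet difference was 1.04 (BH adjusted p 0.090) within low RFI and 0.89 (BH adjusted p 0.14) within high RFI. Neither was called in this fit, while ADAM28 was called when low RFI pigs were fitted alone. The interaction of 0.15 had a raw p of 0.79. The spread of ADAM28 between pigs of a group (pooled SD 1.02) was the largest of the 32 genes, and 99.1% of all named genes had a smaller one. Within the 6 slides, each with 2 pigs of every group, the diet difference ranged from -0.31 to 2.27 and was positive on 5, and it was 1.16 and 0.77 on the 2 scan days.

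A second ADAM28 probe was well above background on 0 arrays, so the level rests on a single probe. The 2 probes shared no run longer than 6 letters (8 against the reverse strand). Both are shown because one read ADAM28 on 46 arrays and the other on none, the first with its opening 30 of 60 bases.
ADAM28 measured probe : ttttccaggataagctgatgtctacaccta
ADAM28 second probe : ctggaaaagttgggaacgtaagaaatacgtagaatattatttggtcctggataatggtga
The G and C content was 45.0% over the whole measured probe and 36.7% over the second.

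**Figure D2:**
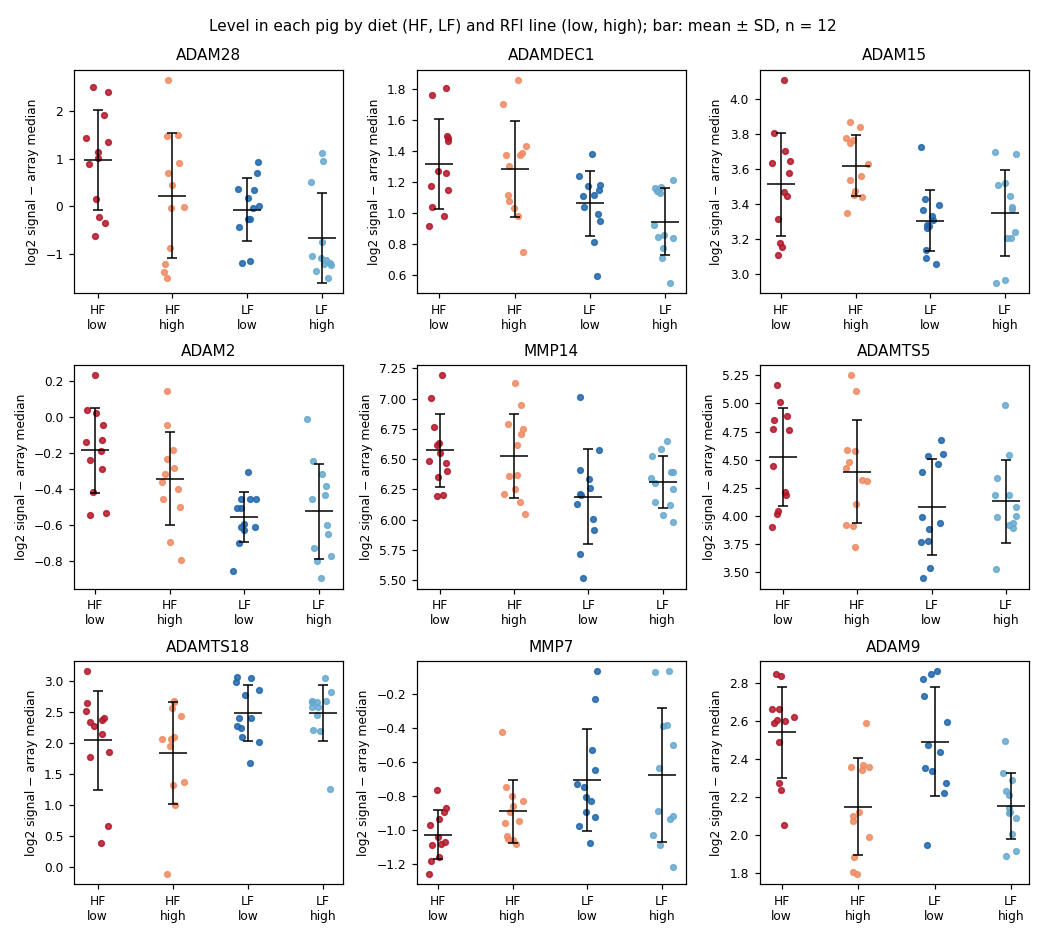
Level of the 9 genes called for diet or line in each pig, as log2 signal minus the array median, by diet and RFI line, with the group mean and SD over 12 pigs as black bars. ADAM28 spans from -1.52 to 2.67 over the 48 pigs, and the ADAM9 levels of the low RFI groups sit mostly above those of the high RFI groups.

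ADAMDEC1, a secreted relative of ADAM28 known from macrophages and dendritic cells, was the gene whose pattern over the 48 pigs was most like that of ADAM28. The 2 genes correlated at r = 0.79 (0.75 after the group means were removed), the highest value among the other named genes. Next came LOC396700 at 0.55, PHGDH at 0.53, Phf7 at 0.52 and rpl35 at 0.50. In the gene order of the Sscrofa11.1 pig assembly ADAM28 stands between STC1 and ADAMDEC1, and ADAMDEC1 between ADAM28 and ADAM7. The ADAM28 and ADAMDEC1 probes shared no run longer than 5 letters (6 against the reverse strand). The member next most like ADAM28 was ADAM2 at r = 0.27, rank 357, and at 0.01 within groups.

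Levels of ADAMDEC1 ran from 0.75 through 1.29 to 1.86 on HF and from 0.55 through 1.08 to 1.38 on LF. Here 9 HF pigs lay above the highest LF pig, and 1 LF pig lay above the HF median. The means were 1.30 ± 0.30 and 1.002 ± 0.22 (SD, n = 24 each), a difference of 0.30 (SE 0.074, BH adjusted p 0.0021) that was positive on 6 of 6 slides. The line difference was 0.08 (BH adjusted p 0.77).

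**Figure D3:**
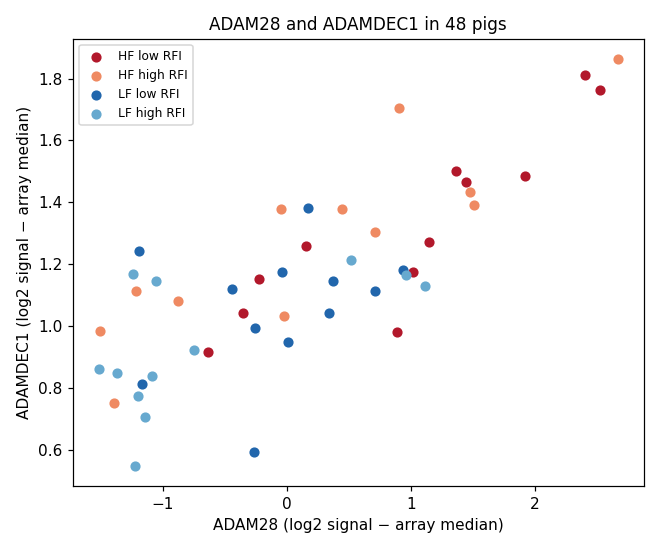
ADAM28 level on the horizontal axis against ADAMDEC1 level on the vertical axis for the 48 pigs, both as log2 signal minus the array median and coloured by group. The levels rise together (r = 0.79), the pigs highest for both are HF pigs, and HF pigs are also found at the lower left beside LF high RFI pigs.

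ADAM28 was set against scores of 13 cell type marker lists, each score being the mean over its measured genes of values centred over the 48 pigs. Pearson's r ranged from -0.25 (endothelium) to 0.23 (adrenal), and no list passed a BH adjusted p of 0.05 over the 13 lists in a 2-sided permutation test of 100000 resamples. For endothelium the raw p was 0.082 (BH adjusted 0.78), Spearman's rho was -0.26 (p = 0.079), and r was -0.18 without the 2 pigs farthest from the median score. In HF pigs alone r with endothelium was -0.53 (permutation p = 0.0077, BH adjusted 0.0998), with rho -0.48 (p = 0.020, BH adjusted 0.25), compared with -0.08 in LF pigs alone. In low RFI pigs alone r was -0.44 with mesothelium (permutation p = 0.032) and 0.42 with adrenal (permutation p = 0.041), both with a BH adjusted p of 0.27. The macrophage score gave r = 0.03 over all pigs, -0.24 in HF pigs alone (permutation p = 0.26) and -0.08 in LF pigs alone (permutation p = 0.72). Values over all pigs hold diet and line differences too. The B cell list could hardly be read, since 2 of its 10 genes (MS4A1 and POU2AF1) were measured and 1 LF high RFI pig stood alone with a score of 2.83.

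Calls in the marker lists are to be read against 5.88% of all named genes called higher with HF and 18.9% called lower. The macrophage list moved with diet. Of its 10 measured genes 7 rose with HF and 0 fell (CD163, MRC1, AIF1, C1QA, C1QB, C1QC and VSIG4, by 0.36 to 0.81), with scores from -1.08 to 1.34 on HF and from -1.29 to 0.98 on LF. CD3G and NKG7 rose among the 9 measured T and NK cell genes, by 0.34 and 0.31, and none fell. Among 9 adipocyte genes LEP, CIDEC and PPARG fell, by 0.94, 0.24 and 0.19, and none rose. For PPARG the paper reported the opposite direction, higher with HF, by qPCR of the same fat samples. DES fell among 5 smooth muscle genes and AQP2 among 2 kidney genes, while neutrophil and mast cell, endothelium, fibroblast, mesothelium, adrenal, skeletal muscle, erythrocyte and B cell lists held no call for diet, and no list held one for line. The part of these cell types in the protease differences was not tested.

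Among the other shedding enzymes ADAM15 rose with HF. ADAM15 is a membrane protease that also binds integrins. Its levels ran from 3.11 through 3.57 to 4.11 on HF and from 2.95 through 3.32 to 3.72 on LF, and 20 of 24 HF pigs lay above the LF median. The means were 3.57 ± 0.24 and 3.33 ± 0.21 (SD, n = 24 each), a difference of 0.24 (SE 0.065, BH adjusted p 0.0049), positive on 6 of 6 slides. All 3 ADAM15 probes were called, with differences from 0.21 to 0.25. The chosen probe and 1 of the others carry the same letters and tracked each other at r = 0.96, while the following probe reads another stretch and gave 0.21.
ADAM15 : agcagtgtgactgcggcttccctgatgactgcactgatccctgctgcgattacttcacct

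ADAM10 and ADAM17, the main enzymes that shed Notch receptors and TNF, were not called for diet or line on the chosen probes. ADAM10 ran from 0.57 to 1.18 on HF and from 0.53 to 1.17 on LF, a difference of 0.05 (SE 0.044, BH adjusted p 0.44). ADAM17 ran from 0.24 to 2.48 on HF and from 0.16 to 2.39 on LF, a difference of 0.07 (SE 0.18, BH adjusted p 0.81). Its pigs were unevenly spread, with 34 over 1.5, 9 between 1 and 1.5 and 5 under 1, the low ones found in every group. The 5 ADAM17 probes gave diet differences from 0.06 to 0.14, none called. The largest, 0.14 (SE 0.041, raw p 0.0018, BH adjusted p 0.011), missed the call only because it stayed just below a fold change of 1.1. For line, 2 of the 5 probes were called lower in low RFI (-0.20 with BH adjusted p 0.044 and -0.15 with BH adjusted p 0.067). The chosen probe was at 0.14 for line, and the other probes correlated with it at r from -0.17 to 0.25. The probes of ADAM17 therefore did not give one direction for line. ADAM8, a shedding enzyme of leukocytes, was at 0.17 for diet (BH adjusted p 0.19) and 0.17 for line (BH adjusted p 0.50), without a call.

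ADAM9, another shedding enzyme of wide tissue distribution, was the single gene of the 32 called for line. Over all named genes 1.87% were called higher and 1.39% lower in low RFI. ADAM9 ran from 1.95 through 2.59 to 2.86 in low RFI pigs and from 1.80 through 2.12 to 2.59 in high RFI pigs. Of the 24 low RFI pigs 22 lay above the high RFI median and 13 above the highest high RFI pig. The means were 2.51 ± 0.26 and 2.15 ± 0.21 (SD, n = 24 each), a difference of 0.36 (SE 0.069, 1.29-fold, BH adjusted p 0.00071), positive on 6 of 6 slides (0.16 to 0.74) and at 0.49 and 0.23 on the scan days. It stood at 0.39 within HF and 0.34 within LF. A second ADAM9 probe above background on 48 arrays gave -0.03 (SE 0.070) and followed the chosen probe at r = 0.34, and the mean of both gave 0.17 with a BH adjusted p of 0.15, which was not called. The line difference of ADAM9 thus belonged to one of its probes. For diet both probes were at 0.02.

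Of the 6 ADAM genes whose proteins are known to lack the zinc motif, ADAM2 and ADAM23 were measured. ADAM2 is fertilin beta, a sperm surface protein. Its chosen probe lay near the dim end, with raw signals from 66 to 183 against array median backgrounds of 23 to 33. It ran from -0.79 through -0.26 to 0.23 on HF and from -0.89 through -0.55 to -0.01 on LF, and 22 of the 24 pigs on HF exceeded the LF median. The difference was 0.27 (SE 0.065, BH adjusted p 0.0014), positive on 6 of 6 slides, and a second probe gave 0.21 (BH adjusted p 0.067, raw p 0.021) without a call. ADAM23, an adhesion protein of nerve cells, differed by 0.04 (BH adjusted p 0.69).

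Among the 11 ADAMTS genes 1 rose and 1 fell. ADAMTS5, an aggrecanase that cuts aggrecan and versican, ran from 3.72 through 4.44 to 5.25 on HF and from 3.45 through 3.99 to 4.98 on LF. The means were 4.46 ± 0.44 and 4.11 ± 0.39 (SD, n = 24 each), a difference of 0.35 (SE 0.12, 1.28-fold, BH adjusted p 0.022). Of the 24 pigs on HF 20 exceeded the LF median. A second probe gave 0.36 and was called, and the remaining one gave 0.15 and was not. The slides ranged from 0.01 to 0.92.

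ADAMTS18, an enzyme with few known substrates, fell with HF. It ran from -0.12 through 2.12 to 3.17 on HF and from 1.26 through 2.58 to 3.07 on LF, so that the diets shared their upper range while the lowest levels came from HF pigs. The means were 1.94 ± 0.80 and 2.49 ± 0.44 (SD, n = 24 each), a difference of -0.54 (SE 0.18, BH adjusted p 0.022). Within slides it ranged from -1.52 to 0.21 and was negative on 5 of 6. The other 9 ADAMTS genes lay between -0.25 and 0.44 without a call. The lowest, ADAMTS2 (raw p 0.013, BH adjusted p 0.046), was called lower with the slide or replicate block and in low RFI pigs alone. Spike-in centring called ADAMTS9, ADAMTS16 and ADAMTS20 higher, and ADAMTS9 was also called higher in high RFI pigs alone. The 2 ADAMTS-like genes, which lack a protease domain, were at 0.40 (ADAMTSL3, BH adjusted p 0.040, raw p 0.011) and -0.09 (ADAMTSL4), also without a call. ADAMTSL3 was called higher with HF under the 75th percentile, quantile, normexp with quantile and spike-in scalings, with the slide as a block and in the deposited log2 table.

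MMP14, the membrane-type enzyme that cuts collagen at the cell surface and activates pro-MMP2, rose with HF. It ran from 6.05 through 6.52 to 7.19 on HF and from 5.52 through 6.26 to 7.01 on LF, and 18 of 24 HF pigs lay above the LF median. The means were 6.55 ± 0.32 and 6.25 ± 0.31 (SD, n = 24 each), a difference of 0.30 (SE 0.090, BH adjusted p 0.011), positive on 6 of 6 slides. MMP16, the other membrane-type enzyme measured, was at -0.03 (BH adjusted p 0.84).

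The gelatinases did not pass the test on their chosen probes. MMP2, whose proenzyme MMP14 activates, ran from 7.11 through 7.46 to 8.16 on HF and from 6.87 through 7.30 to 7.99 on LF, a difference of 0.18 (SE 0.090, BH adjusted p 0.13). It was called at 0.26 with quantile and with normexp-quantile scaling and at 0.30 with spike-in centring. Its 2 probes tracked each other at r = 0.99. MMP9 ran from 3.02 through 3.27 to 4.17 on HF and from 2.97 through 3.25 to 3.70 on LF, a difference of 0.02 (SE 0.064, BH adjusted p 0.88). The second MMP9 probe was called at 0.42 (SE 0.15, BH adjusted p 0.033) and followed the chosen one at r = 0.61, so the probes of MMP9 disagreed.

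MMP7, or matrilysin, an enzyme best known from epithelia, fell with HF. It ran from -1.26 through -0.96 to -0.42 on HF and from -1.22 through -0.78 to -0.07 on LF, with raw signals from 54 to 144. The 6 highest pigs were all LF pigs. The means were -0.96 ± 0.18 and -0.69 ± 0.34 (SD, n = 24 each), a difference of -0.27 (SE 0.077, BH adjusted p 0.0077), negative on 6 of 6 slides. MMP11 was at 0.15 (BH adjusted p 0.053, raw p 0.015) on its chosen probe, and its 6 probes ranged from -0.07 to 0.16 with 1 called. A pair of MMP11 probes with identical letters tracked each other at r = 0.14 only, and MMP11 is read here as uncertain. MMP19 was at -0.12 (BH adjusted p 0.13).

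None of the 3 TIMPs measured was called for diet or line. TIMP1 ran from 5.23 through 5.69 to 6.41 on HF and from 5.20 through 5.67 to 6.53 on LF, a difference of 0.04 (SE 0.093, BH adjusted p 0.76). TIMP2 differed by -0.05 (SE 0.11, BH adjusted p 0.77) and TIMP3, which is bound to the matrix and also blocks ADAM17, by 0.10 (SE 0.070, BH adjusted p 0.30). The diet ranges of all 3 overlapped almost fully. The other 3 TIMP1 probes gave 0.19 to 0.22 without a call, and TIMP1 was printed on the array with the same letters under 2 probe names, which tracked each other at r = 0.88.
TIMP1 : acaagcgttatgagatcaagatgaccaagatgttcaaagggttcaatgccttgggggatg

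**Figure D4:**
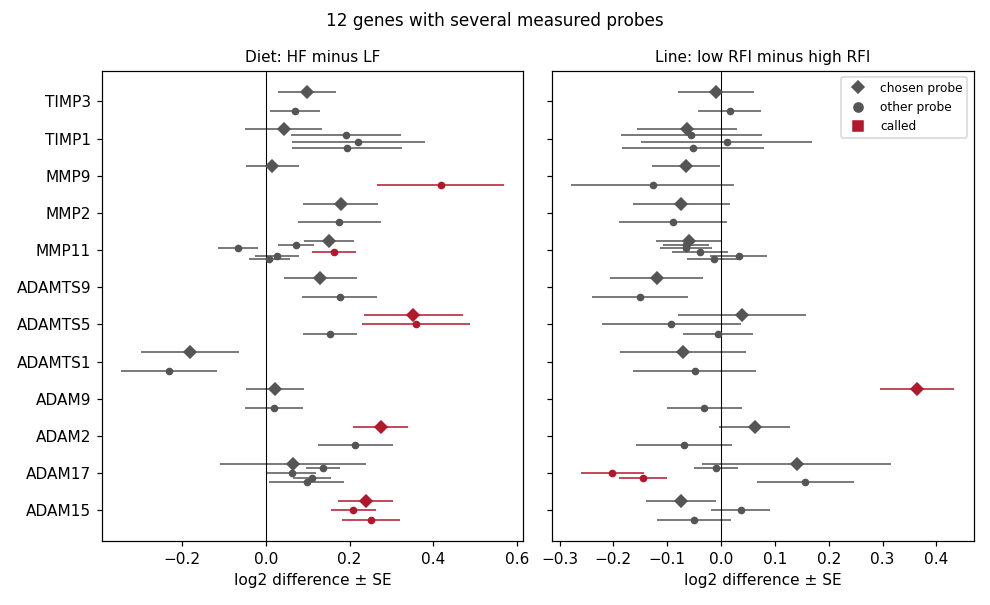
Log2 difference with its standard error for every measured probe of the 12 genes with several, HF minus LF on the left and low RFI minus high RFI on the right, with the chosen probe as a diamond and called probes in red. ADAM15 and ADAMTS5 hold more than 1 called probe for diet, while the second probes of MMP9 (0.42) and ADAM9 (-0.03) stand apart from the chosen ones.

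Between members the closest pairs over the 48 pigs were ADAMTSL3 with MMP2 and ADAM28 with ADAMDEC1, both at r = 0.79, then MMP2 with TIMP1 at 0.78 and MMP16 with TIMP1 at 0.77. The lowest was ADAMTS18 with ADAMTSL3 at -0.65. Groups are pooled in these values, so they hold diet and line differences too.

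The interaction of diet and line was called for none of the 32 genes (0.0% of all named genes). One gene had a raw interaction p under 0.05, ADAMTS8, an enzyme of the ADAMTS family, at -0.68 (raw p 0.027), and the lowest BH adjusted p of the 32 was 0.9999. Over all 43355 probes limma called 0, with 997 at a raw p under 0.05, and the 2-way ANOVA of the methods also called 0, with 980. Besides ADAM9, a raw line p under 0.05 was found for ADAM28 and for ADAMTS12 (-0.19, raw p 0.031). Over all 13378 named genes, 1620 had a raw line p under 0.05 and 294 a raw interaction p under 0.05 in limma.

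Partner genes were read from 4 lists, against 5.88% of all named genes called higher with HF and 18.9% called lower. Among substrates and helpers of shedding, 4 of 14 measured genes rose with HF and 2 fell. EGFR rose by 0.28 (SE 0.077, BH adjusted p 0.0052), the adhesion receptor VCAM1 by 0.29 (SE 0.073, BH adjusted p 0.0028), the interleukin 6 receptor IL6R by 0.21 and the TNF receptor TNFRSF1B by 0.19. The EGFR ligand HBEGF fell by 0.22 and TSPAN15, a tetraspanin partner of ADAM10, fell by 0.15. TNF itself was at -0.04 (BH adjusted p 0.59). The median of this list was -0.01, against -0.05 over all named genes.

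Among matrix substrates 3 of 18 measured genes rose and 0 fell, with a list median of 0.19. Versican (VCAN), a substrate of ADAMTS5, rose by 0.52 (SE 0.19, BH adjusted p 0.033), fibronectin (FN1) by 0.43 (SE 0.13, BH adjusted p 0.012) and the basement membrane collagen COL4A2 by 0.23 (SE 0.059, BH adjusted p 0.0035). COL1A1 and COL3A1 were at 0.21 each (BH adjusted p 0.24 and 0.11). Of 8 other inhibitors of matrix proteases cystatin C (CST3) rose by 0.34 (SE 0.12, BH adjusted p 0.029) and 0 fell, with a list median of -0.08. None of 7 plasminogen and convertase genes was called, with a list median of -0.01, and the urokinase receptor PLAUR at 0.12 (BH adjusted p 0.015) stayed under a fold change of 1.1. No gene of the 4 lists was called for line.

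**Figure D5:**
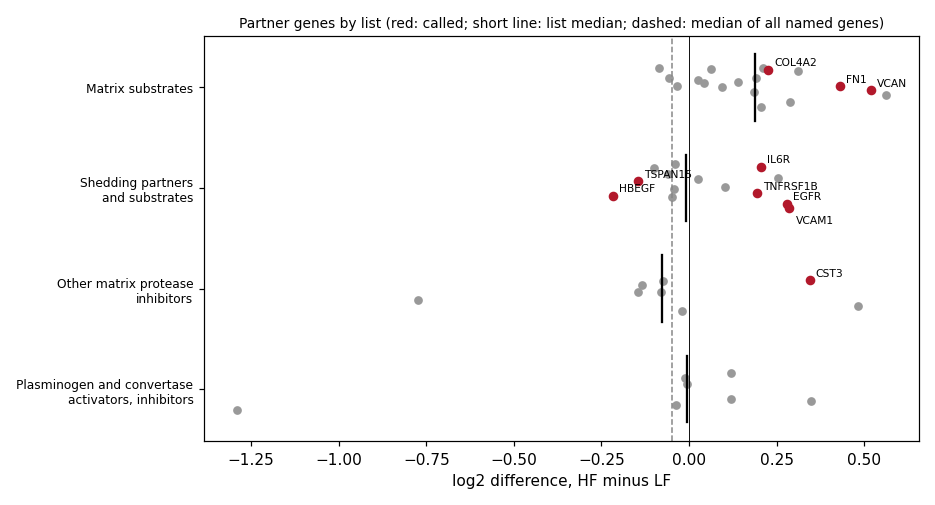
HF minus LF log2 difference of each measured gene in the 4 partner lists, with called genes named in red, the median of each list as a short black line and the median of all named genes (-0.05) as a dashed line. Matrix substrates have a median of 0.19, and the other 3 lists have medians from -0.08 to -0.01.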

How the data were processed

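Per the labels, total RNA of perirenal fat from 48 pigs (12 per group, each a separate animal) was labelled with Cy3 and hybridised to 1-colour Agilent arrays. The authors deposited scanner files of spot intensity, background and flags, made with Agilent Feature Extraction, and a table of log2 values that, per their methods, they filtered and centred on the array median in R (version 2.10.0 in the submitters' notes). The labels of that log2 table matched the spot holding the same values in 2 of 38142 entries, so the deposited table served only as an alternative, named by value. Here log2 median spot intensity minus the array median over non-control probes was used, without background subtraction, which pulls dim probes toward 0. Probes flagged well above background on 24 or more of 48 arrays (43355) were fitted with limma 3.58.1 in R 4.3.3 by diet, line and interaction. The fit was tested on simulated data. Members, lists and named genes were chosen with earlier results of these data known. Named are called members, ADAM28 and its 5 most similar genes, ADAM10, ADAM17, MMP2, MMP9, MMP14, TIMPs and called list genes, and other genes were named after their values were seen. Alternatives changed the scaling, background, filter, test, slide, scan day, replicate block, thresholds, pigs and probes. The number of arrays and the signal over background limit the precision.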

Additional observations from a re-analysis of the deposited data

How the results depend on the processing

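The diet count of 8 genes became 14 with spike-in centring, 1 at a fold change over 1.5 (ADAM28), 5 in low RFI pigs alone (ADAM2, ADAM28 and MMP14 higher, ADAMTS2 and MMP7 lower) and 4 in high RFI pigs alone (ADAM15, ADAMDEC1, ADAMTS9 and ADAMTSL3 higher), the last 2 with 24 pigs in place of 48. It lay between 6 and 10 under the other alternatives, the lowest with probes above background on all 48 arrays, which leave out ADAM28 and MMP7. The deposited log2 table, in which MMP7 was not analysed, gave 8, with ADAMTSL3 among them. The line count of 1 became 0 at a fold change over 1.5, 0 in LF pigs alone, 0 where the probes of each gene were averaged, and 2 in HF pigs alone (ADAM9, and ADAMTS8 lower in low RFI), and stayed at 1 elsewhere. The interaction count and the number of marker lists correlated with ADAM28 were 0 in every alternative run. No called difference changed sign. Calls over all probes fell from 9993 to 440 for diet and from 1463 to 233 for line at a fold change over 1.5, to 5353 and 5699 for diet in low and high RFI pigs alone, and to 431 and 117 for line in HF and LF pigs alone. Same-numbered pigs of different groups correlated at a mean r of 0.10 (38 of 72 pairs over 0.1, from -0.29 to 0.53). The mean r was 0.04 for pigs of other numbers on the same slide and -0.01 on other slides, so same-numbered pigs were somewhat more alike. The labels do not say that the numbers pair pigs, and the main fit held no replicate block. With the replicate block 10 genes were called for diet (the same 8, ADAMTSL3 and ADAMTS2), 1 for line and 0 for the interaction, and 10886 and 1945 probes in all for diet and line. Causes of these changes were not tested. For the dim probes of ADAM28, ADAM2 and MMP7 the diet differences were 1.34, 0.40 and -0.42 after background subtraction, each still called.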
